A study of Mus musculus with 27 samples.

Results

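The interferon response genes described here are 9 of the 37310 genes in the count table of this series: Stat2, Irf9, Irf7, Ddx58, Ifit1, Ifit3, Rsad2, Isg15 and Usp18. They were chosen by symbol, with no threshold on a measured value, but with earlier results of these data known. The libraries are RNA-seq of mouse embryonic fibroblasts (MEFs), primary cells grown from individual mid-gestation embryos after removal of head, limbs and viscera, and their labels name no interferon, virus or other agent. There were 4 groups of 3 libraries: female wild-type (WT), female Firre KO, male WT and male Firre KO. The Firre KO allele lacks the whole locus of the X-linked long non-coding RNA Firre, removed in the mouse by recombination between inserted loxP sites, so every cell of a KO embryo carries it. The labels do not say whether the 3 replicates of a group came from separate embryos or cultures, so the p-values measure only the spread between these libraries, which may be technical.

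Type I interferons bind the receptor made of Ifnar1 and Ifnar2, whose kinases Jak1 and Tyk2 activate STAT proteins, among them Stat2. Together with Irf9 they form a complex that binds the interferon-stimulated response element (ISRE) in the promoters of many antiviral genes. Fibroblasts are a classical responding cell type, and even without added interferon they keep a low level of many of these transcripts. Stat2 and Irf9 are parts of the complex itself. Irf7 drives the transcription of interferon genes, Ddx58 (RIG-I) senses foreign RNA in the cytoplasm, and Ifit1 and Ifit3 are partner proteins that bind RNA. Rsad2 (viperin) is an antiviral enzyme. Isg15 is a small protein that becomes attached to other proteins, and Usp18 removes it and also damps signalling at the receptor.

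For 8 of the 9 genes there were promoter windows in RefSeq (GRCm38.p6), each running from 250 bases before to 50 bases after a transcription start. Usp18 was not among the 8. The ISRE core was searched as GAAANNGAAA on either strand, which reads TTTCNNTTTC on the other one. It was present in 6 of the 8 genes, namely Stat2, Ddx58, Ifit1, Ifit3, Rsad2 and Isg15, and in 3.99% of the 27025 genes with such windows (3.44% of 32851 windows). Irf9 with 2 windows and Irf7 with 1 held no match, which says only that these letters are not in those windows. The stretches of Stat2, Ifit1, Ifit3, Rsad2 and Isg15 are shown because they hold the matches that lie before the start. The matched letters are in capitals with 20 bases on each side, read 5′ to 3′ on the strand of the gene:
Stat2, chr10:128270256-128270305, plus strand: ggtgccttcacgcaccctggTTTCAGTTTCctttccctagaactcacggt
Ifit1, chr19:34640765-34640833, plus strand: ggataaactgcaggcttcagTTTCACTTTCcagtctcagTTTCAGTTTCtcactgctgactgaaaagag
Ifit3, chr19:34583353-34583436, plus strand: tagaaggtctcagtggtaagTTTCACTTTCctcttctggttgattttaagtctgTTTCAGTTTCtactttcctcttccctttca
Rsad2, chr12:26456543-26456592, minus strand: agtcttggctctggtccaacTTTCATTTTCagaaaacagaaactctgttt
Isg15, chr4:156200855-156200916, minus strand: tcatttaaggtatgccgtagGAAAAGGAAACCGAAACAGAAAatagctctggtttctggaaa

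Ifit1 and Ifit3 each held 2 matches, and Isg15 held 3 that overlap one another, while 0.225% of all windows held 2 or more. The nearest match began 66 bases before the start in Isg15, 85 in Ifit1, 120 in Rsad2, 122 in Ifit3 and 222 in Stat2. In Ddx58 the match lay from base 3 to base 12 after the start. The gamma-activated site, searched as TTCNNNGAA, was in none of the 8 genes, in 9.55% of all genes with windows and in 8.30% of the windows. A match of letters is a description of the promoter and no measure of binding.

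Gene levels are given as CPM, the expected count of a gene, rounded to a whole number, per 1000000 counts of the library total after TMM adjustment, a scaling between libraries. The unadjusted totals ran from 42986516 to 65454660 expected counts, and the shallowest male library still exceeded the deepest female one. Firre, listed in the table as 6720401G13Rik, had 90 to 307 counts in the WT libraries and 0 in all 6 KO libraries, as the labels have it. Summed over 10 fibroblast markers, the libraries held 16101 to 19770 CPM in female WT, 17473 to 19900 in female KO, 18873 to 23593 in male WT and 18530 to 23576 in male KO. Summed over 13 macrophage markers, they held 58.3 to 105 CPM in female WT, 47.3 to 146 in female KO, 11.8 to 17.9 in male WT and 9.50 to 19.7 in male KO libraries. Of 6 lymphocyte markers, Cd3e and Ncr1 were at 0 everywhere and the sum stayed at or below 0.408 CPM. In bulk RNA, fewer cells of a type and less RNA per cell cannot be told apart.

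The 9 genes fell into a group of 3 at moderate transcript levels and a group of 6 at low levels. Ddx58 ranged from 15.7 to 30.5 CPM, Stat2 from 7.25 to 9.97 CPM and Irf9 from 6.04 to 7.52 CPM over the 12 libraries. Ifit3 reached at most 1.06 CPM, Irf7 0.922 CPM, Isg15 0.694 CPM, Ifit1 0.662 CPM, Usp18 0.453 CPM and Rsad2 0.164 CPM. Ddx58 had a higher mean CPM than 72.1% of the 24148 genes with a count. In the low group Ifit3 had a higher mean than 46.9% of them and Rsad2 than 33.4%. Among these 9 genes, the antiviral effectors and Usp18 were thus all in the low group. The parts of the signalling complex and the RNA sensor were in the higher group, and the transcription factor Irf7 was at a low level. The split by role holds for these 9 genes only, since other effectors of the pathway had both high and low levels. Ifitm2 had 70.7 to 87.9 CPM, Ifitm3 42.2 to 67.3 CPM and Eif2ak2 32.5 to 42.7 CPM, while Mx1 had 0 to 0.0858 CPM. The sensor Dhx58 had 0.288 to 0.764 CPM.

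**Figure D1:**
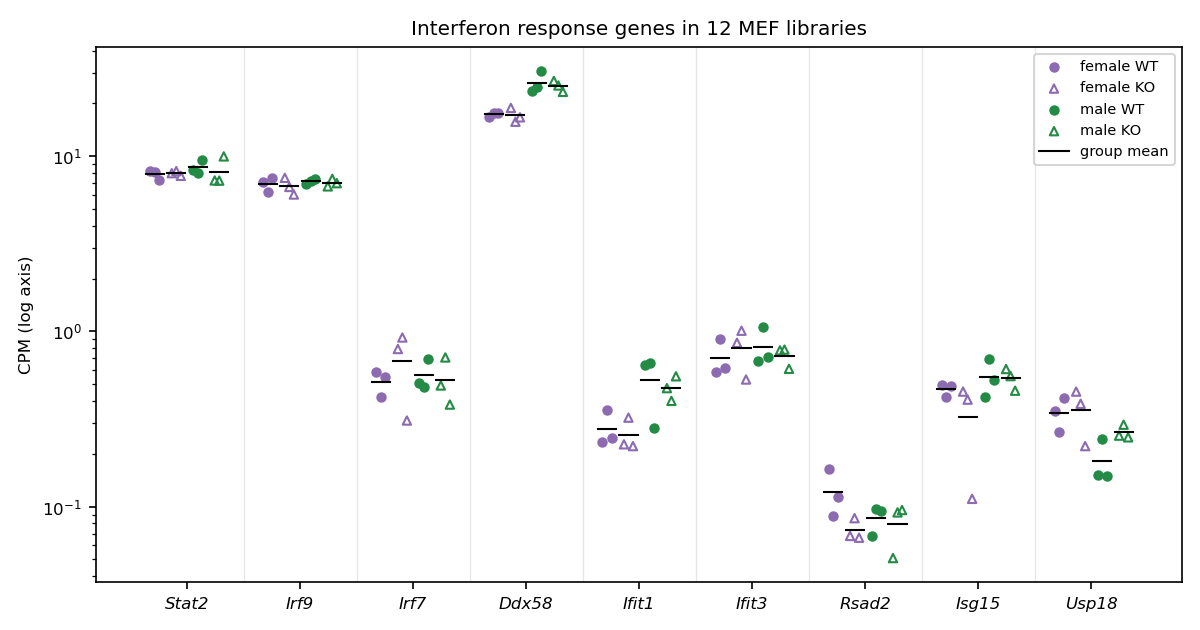
CPM (log axis) of the 9 interferon response genes in each of 12 libraries, with filled circles for WT, open triangles for KO, purple for female and green for male MEFs, and a bar at each group mean of 3. Ddx58, Stat2 and Irf9 lie above 6 CPM in every library, and the other 6 genes lie at or below 1.06 CPM.

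Divided by transcript length, the order of the median levels in CPM per kilobase was Ddx58 at 5.44, Irf9 at 2.39, Stat2 at 1.83, Isg15 at 0.627, Ifit3 at 0.427, Irf7 at 0.235, Usp18 at 0.147, Ifit1 at 0.127 and Rsad2 at 0.0216. The ranges of neighbours overlapped except between Ddx58 and Irf9, between Stat2 and Isg15, and between Ifit1 and Rsad2. Within a library the order was firmer, since Irf9 exceeded Stat2 in 12 of 12 libraries and Irf7 exceeded Usp18 in 12 of 12. Usp18 exceeded Ifit1 in 7 of 12, so these neighbours had no fixed order.

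Stat2, on chromosome 10 (mm9, 127707629 to 127729905, plus strand), had 8.25, 8.13 and 7.31 CPM in female WT libraries and 7.99, 8.21 and 7.72 CPM in female KO libraries. In male MEFs it had 8.37, 7.99 and 9.49 CPM in WT and 7.26, 7.25 and 9.97 CPM in KO libraries. The highest value was in male KO replicate 3, above the other male KO libraries, and all 4 groups overlapped. Irf9, on chromosome 14 (56222408 to 56228867, plus strand), had 7.15, 6.23 and 7.52 CPM in female WT and 7.52, 6.67 and 6.04 CPM in female KO libraries. Irf9 had 6.97, 7.23 and 7.41 CPM in male WT and 6.72, 7.42 and 7.01 CPM in male KO libraries. It was the steadiest of the 9 genes, its highest library being 1.25 times its lowest. Its annotated exons overlap those of Rnf31 on the same strand, so some of its reads may have been shared with that gene.

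Irf7, on chromosome 7 (148448605 to 148452380, minus strand), had 0.584, 0.420 and 0.546 CPM in female WT libraries and 0.793, 0.922 and 0.310 CPM in female KO libraries. The female KO group held both the highest and the lowest value of the 12. In male MEFs Irf7 had 0.506, 0.484 and 0.694 CPM in WT and 0.491, 0.709 and 0.382 CPM in KO libraries. Its exons overlap Phrf1 on the opposite strand. The labels name the Illumina TruSeq kit (version 2), and the sources used here do not say whether the counting used strand. If it did not, reads of both genes could not be told apart there.

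Ddx58, on chromosome 4 (40150806 to 40186861, minus strand), had 16.8, 17.7 and 17.7 CPM in female WT and 18.8, 15.7 and 16.7 CPM in female KO libraries. In male MEFs it had 23.6, 24.8 and 30.5 CPM in WT and 26.9, 25.3 and 23.3 CPM in KO libraries. Each of the 6 male libraries was above each of the 6 female ones, and WT and KO overlapped in both sexes. Ddx58 was read from 717 to 1641 expected counts per library, the most of the 9 genes.

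Ifit1 and Ifit3 lie in 1 gene cluster on chromosome 19 (34715361 to 34724499 and 34658021 to 34663221, both plus strand), with Gm14446, I830012O16Rik and 2010002M12Rik between them. Ifit1 had 0.234, 0.354 and 0.245 CPM in female WT, 0.226, 0.322 and 0.221 CPM in female KO, 0.641, 0.662 and 0.281 CPM in male WT and 0.474, 0.401 and 0.554 CPM in male KO libraries. Only male WT replicate 3 among the male libraries came down into the female range. Ifit3 had 0.584, 0.906 and 0.622 CPM in female WT, 0.861, 1.01 and 0.531 CPM in female KO, 0.675, 1.06 and 0.712 CPM in male WT and 0.779, 0.787 and 0.611 CPM in male KO libraries, with all groups overlapping. Ifit2, another gene of the family on the far side of Ifit3, had 14.0 to 24.9 CPM, well above both. The paralogs I830012O16Rik and 2010002M12Rik had at most 0.396 and 0.412 CPM. The counts of Ifit3 and I830012O16Rik held fractions in all 12 libraries and those of Ifit1 and 2010002M12Rik in 6, as happens where RSEM splits reads between near copies, so the levels of Ifit1 and Ifit3 are uncertain to that degree.

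Rsad2, on chromosome 12 (27127618 to 27141317, minus strand), had 3 to 7 counts per library. Its level was 0.164, 0.0884 and 0.113 CPM in female WT, 0.0679, 0.0858 and 0.0664 CPM in female KO, 0.0675, 0.0968 and 0.0937 CPM in male WT and 0.0508, 0.0925 and 0.0955 CPM in male KO libraries. The female WT libraries together had 17 counts, or 0.120 CPM with an exact 95% Poisson interval of 0.0702 to 0.193. The female KO libraries had 10 counts, or 0.0735 CPM with an interval of 0.0353 to 0.135, which covers counting error only. The 3 female KO values lay below the 3 WT values, where 19.1% of all genes tested had no overlap between these groups in either direction. The intervals overlapped widely and no difference was detectable at this depth. Rsad2 did not pass the filter on low counts and entered no test, which leaves 8 of the 9 genes tested.

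Isg15, on chromosome 4 (155573533 to 155574927, minus strand), had 0.491, 0.420 and 0.490 CPM in female WT and 0.453, 0.407 and 0.111 CPM in female KO libraries. The value of female KO replicate 3 rested on 5 counts and was the lowest of the 12. In male MEFs Isg15 had 0.422, 0.694 and 0.525 CPM in WT and 0.609, 0.555 and 0.458 CPM in KO libraries. Usp18, on chromosome 6 (121195924 to 121220934, plus strand), had 0.351, 0.265 and 0.414 CPM in female WT and 0.453, 0.386 and 0.221 CPM in female KO libraries. Usp18 had 0.152, 0.242 and 0.150 CPM in male WT and 0.254, 0.293 and 0.248 CPM in male KO libraries, so that each male KO value was above each male WT value.

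Relative to their group means, the replicates lay within -0.15 to 0.22 log2 units for Ddx58, -0.16 to 0.16 for Irf9 and -0.15 to 0.30 for Stat2, and within -1.10 to 0.62 for Isg15 and -0.91 to 0.56 for Irf7. Within groups, the chi-square of the counts per degree of freedom, which is near 1 where reads vary by counting alone and grows with the count for the same relative spread, was 10.9 for Ddx58, 5.70 for Stat2, 3.02 for Irf7, 2.33 for Ifit3, 2.03 for Irf9, 1.91 for Isg15 and 1.62 for Ifit1. It was 0.908 for Usp18 and 0.312 for Rsad2, whose replicates differed by no more than counting noise. It does not rank the genes by their variation, since their counts differ.

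The effect of the Firre deletion on these genes was tested within each sex with edgeR's quasi-likelihood test over 15387 genes, where a call needs a Benjamini-Hochberg adjusted p under 0.01 together with a change of more than 1 log2 unit. No member was called in female or in male MEFs, and none had an unadjusted p under 0.05 in either, where 7.55% of all genes did in female and 2.06% in male MEFs. At this threshold 0.0065% of all genes tested were called in female and 0.0065% in male MEFs, and at an adjusted p under 0.05 alone 0.013% and 0.0065%, so the count of 0 of 8 does not set these genes apart. DESeq2 also called none of them. Over the 8 genes the median log2 fold change, KO against WT, was -0.01 in female MEFs with 4 of 8 positive and -0.07 in male MEFs with 1 of 8 positive. Over all genes tested the medians were -0.0003 and -0.0041, with 7672 and 7337 of 15387 genes positive.

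In female MEFs the log2 fold changes ran from -0.53 for Isg15 to 0.38 for Irf7. The interval for Isg15 was -1.41 to 0.35 (95%, SE 0.40, edgeR adjusted p = 0.79) and that for Irf7 was -0.45 to 1.21 (SE 0.38, adjusted p = 0.85). Both depended on single female KO libraries. Without replicate 3 the change of Isg15 was -0.12 and that of Irf7 was 0.73, and without replicate 1 that of Isg15 was -0.84 and without replicate 2 that of Irf7 was 0.090, with all adjusted p-values under the alternatives at 0.67 or more. The well-measured genes were held more tightly: Stat2 at 0.02 (95% interval -0.26 to 0.29), Irf9 at -0.05 (-0.26 to 0.17) and Ddx58 at -0.03 (-0.25 to 0.19). A change of 1 log2 unit lay outside the interval in both sexes for these 3 genes, and also for Ifit1 (-0.93 to 0.72 in female and -0.87 to 0.55 in male MEFs) and Ifit3 (-0.46 to 0.83 and -0.79 to 0.45), whose intervals were wider.

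In male MEFs Usp18 had the largest log2 fold change, 0.54 (SE 0.34, 95% interval -0.20 to 1.27, edgeR adjusted p = 1.0), with a mean of 0.265 CPM ± 0.0244 in KO and 0.181 CPM ± 0.0526 in WT libraries (SD, n = 3). It was the 1 gene of 8 whose KO and WT libraries did not overlap there, where 5.29% of all genes tested did not. In female MEFs none of the 8 tested genes was without overlap, where 19.1% of all genes were. The other male log2 fold changes ran from -0.17 for Ifit3 to -0.02 for Isg15.

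The difference of the KO effect between the sexes was tested in the same fit. None of the 8 genes was called, as was none of the 15387 genes (0%), and none had an unadjusted p under 0.05, where 3.19% of all genes did. At an adjusted p under 0.05 alone the share over all genes was also 0%. The differences, female minus male, ran from -0.51 for Isg15 (95% interval -1.70 to 0.68) to 0.46 for Irf7 (-0.70 to 1.62), and the intervals of Irf7 and Ifit3 reached past 1 log2 unit upward, those of Isg15 and Usp18 downward and that of Ifit1 both ways. The difference for Isg15 was -0.10 without female KO replicate 3 and -0.82 without female KO replicate 1, and that for Irf7 was 0.81 without female KO replicate 3 and 0.17 without female KO replicate 2.

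**Figure D2:**
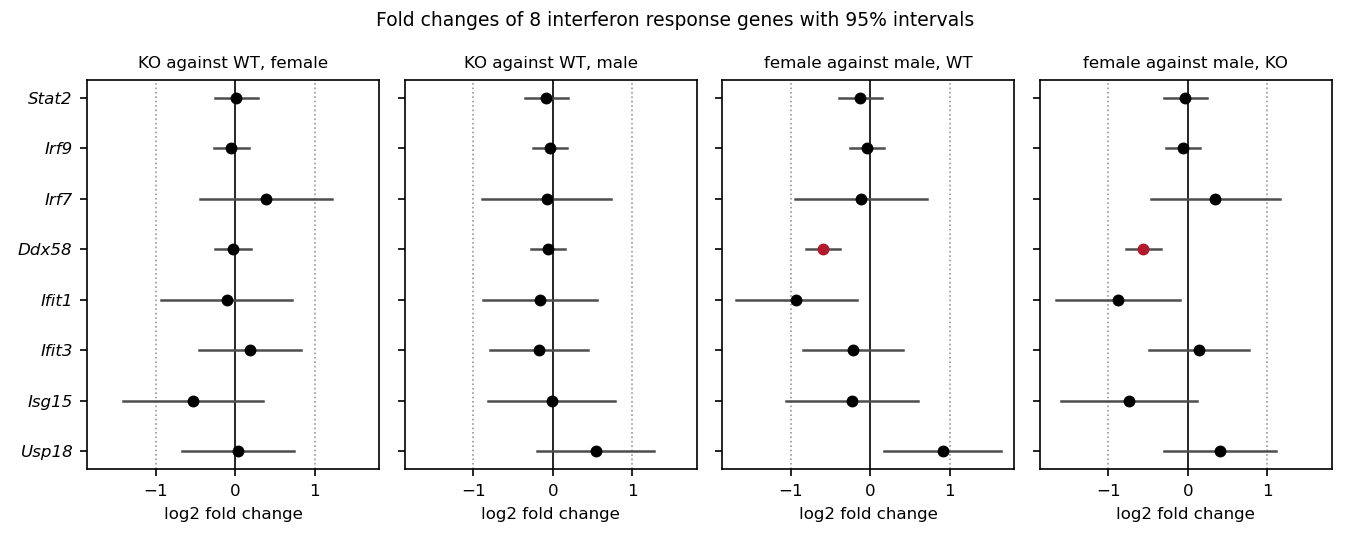
Log2 fold change (point) and 95% interval (line) of the 8 tested interferon response genes in 4 comparisons, each with 3 libraries against 3. Dotted lines mark 1 log2 unit, and red points are those with an adjusted p under 0.05, which are Ddx58 in both comparisons of female against male MEFs.

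Female and male MEFs differ in sex, in embryo line, in depth and in markers of other cell types, and these cannot be told apart in this design. Beside the macrophage markers given above, 7 epithelial markers summed to 74.6 to 129 CPM in female and 40.8 to 53.7 CPM in male libraries, and 7 endothelial markers to 25.8 to 37.3 CPM and 17.4 to 23.9 CPM. Called higher in female MEFs were 4 of 7 epithelial markers in WT and 1 of 7 in KO, 1 of 6 tested endothelial markers in WT and 0 in KO, and 3 of 7 tested skeletal muscle markers in each genotype, although the summed muscle markers overlapped between the sexes. Fibroblast markers had a median log2 fold change, female against male, of -0.50 in WT and -0.34 in KO MEFs, with 0 of 10 called. Whether the other markers passed the filter on low counts in the male libraries as well was not checked, so their calls are a description. The part of all these markers in the values below was not tested. Between the sexes 4.54% of all genes were called in WT and 3.89% in KO MEFs, and 38.7% in both passed an adjusted p under 0.05 with no fold limit. None of the 8 interferon response genes was called at the fold limit. At an adjusted p under 0.05 alone, 1 of the 8 passed in each genotype. That gene was Ddx58, whose WT libraries averaged 17.4 CPM ± 0.552 for female and 26.3 CPM ± 3.68 for male MEFs (SD, n = 3). Its level in female MEFs was 1.51 times lower in WT (log2 fold change -0.59, SE 0.10, edgeR adjusted p = 0.0010) and 1.47 times lower in KO (-0.56, SE 0.10, adjusted p = 0.0015). Its adjusted p stayed at or below 0.0056 in WT and 0.0074 in KO MEFs under all alternatives run.

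Ifit1 was lower in female MEFs by a log2 fold change of -0.93 in WT (SE 0.35, edgeR adjusted p = 0.053) and -0.88 in KO (SE 0.35, adjusted p = 0.070), both short of the limit. Usp18 had the opposite direction, with 0.91 in WT (SE 0.33, adjusted p = 0.0503) and 0.41 in KO MEFs (SE 0.32, adjusted p = 0.34), where it was 0.19 without female KO replicate 1 and 0.65 without female KO replicate 3. With the Ifit1 paralog reads added to Ifit1, the log2 fold changes were -0.89 in WT (adjusted p = 0.0043) and -0.90 in KO MEFs (adjusted p = 0.0048), under 0.01 but under the fold limit. Over all alternatives the adjusted p of Ifit1 ran from 0.0043 to 0.17 in WT and from 0.0048 to 0.18 in KO MEFs, and that of Usp18 in WT from 0.039 to 0.17. Without male WT replicate 3, which had the low Ifit1 value, Ifit1 changed by -1.23 in WT and was called (adjusted p = 0.0077). The macrophage markers were called higher in female MEFs for 10 of 13 genes in WT and 11 of 13 in KO. Whether each of them passed the filter in the male libraries was not checked either, so these calls are a description. The part of the macrophage markers in the values of Ifit1 and Usp18 was not tested.

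In WT MEFs the female and male libraries did not overlap for 2 of the 8 genes, Ddx58 (lower) and Usp18 (higher), where 51.9% of all genes tested did not overlap. In KO MEFs they did not overlap for 3 of 8, Ddx58, Ifit1 and Isg15 (all lower), where 50.2% of all genes did not. The share among the interferon response genes was thus no higher than over all genes. Isg15 in KO had a log2 fold change of -0.74 (SE 0.39, edgeR adjusted p = 0.16), and without female KO replicate 3 it was -0.33. Stat2, Irf9, Irf7 and Ifit3 had adjusted p-values from 0.45 to 0.86 in both genotypes.

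The genes were then compared by how they varied together within groups, taking each library's log2 CPM minus the mean of its group over 12 libraries. These are correlations among a few libraries that share depth and group centring, and they are given as a description with no p. Over the 28 pairs of the 8 genes the median Pearson's r was 0.11, with 18 pairs positive and a range of -0.74 to 0.86. Of these pairs 8, or 28.6%, had an r over 0.5, while 14.1% of all pairs of genes tested did, and their median r was -0.001.

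The highest pairs joined Isg15, Usp18, Irf7, Irf9 and Ifit3. Isg15 and Usp18 had an r of 0.86 and a Spearman's rho of 0.83, with 0.90 within the 6 female and 0.78 within the 6 male libraries. Irf9 and Usp18 had an r of 0.80, but 0.94 within female and 0.28 within male libraries. Irf7 and Isg15 also had an r of 0.80, made of 0.97 within female and 0.15 within male libraries. Ifit3 and Isg15 had 0.73, with 0.70 and 0.94 within the sexes. Stat2 had an r between -0.25 and -0.04 with each of the other 7 genes. These values were not stable: within the female libraries Stat2 had an r of 0.33 with Irf7, 0.45 with Ifit1, 0.49 with Ifit3 and 0.32 with Isg15, and without male KO replicate 3 it had 0.41 with Irf7 and 0.46 with Ddx58. The lowest pair was Ddx58 and Ifit1 at -0.74, and it was -0.36 without male WT replicate 3.

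Much of this pattern rested on 1 library. In female KO replicate 3 all 8 genes were below their group mean, with a median deviation of -0.34 log2 units, led by Isg15 at -1.10 and Irf7 at -0.91. Ddx58 at -0.03, Stat2 at -0.05 and Irf9 at -0.15 lay close to it. The share of all genes on the same side of their group mean is not given here, for this or any other library. Without that library the median r over the 28 pairs was -0.05, and 2 pairs in place of 8 had an r over 0.5. Isg15 and Usp18 were 1 of these, at 0.75 without it, and at 0.71 without the 2 libraries farthest from the median of Isg15 (female KO replicates 3 and 1). Irf7 and Isg15 fell to 0.22 without it. The summed macrophage markers were lowest in female KO replicate 3 among the 6 female libraries (47.3 CPM) and highest in female KO replicate 2 (146 CPM), in which Irf7, Isg15 and Ifit3 were above their group mean by 0.56, 0.48 and 0.37 log2 units. Female KO replicate 1, with 66.6 CPM of the summed markers, also had 7 of the 8 genes above the group mean, Isg15 by 0.62, Usp18 by 0.38 and Irf7 by 0.35 log2 units, so Isg15 and Usp18 were higher there than in replicate 2. Over the 12 libraries the deviations of the summed markers had an r of 0.64 with Irf7, 0.45 with Irf9, 0.41 with Usp18, 0.37 with Isg15, 0.20 with Stat2, 0.11 with Ifit1, 0.09 with Ifit3 and -0.45 with Ddx58. Other marker lists varied between the same libraries. Among the 6 female libraries the summed skeletal muscle markers were highest in female KO replicate 3 (140 CPM) and lowest in female KO replicate 2 (86.8 CPM). The summed fibroblast markers were also highest there in female KO replicate 3 (19900 CPM). The part of any of these markers in the co-variation was not tested.

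**Figure D3:**
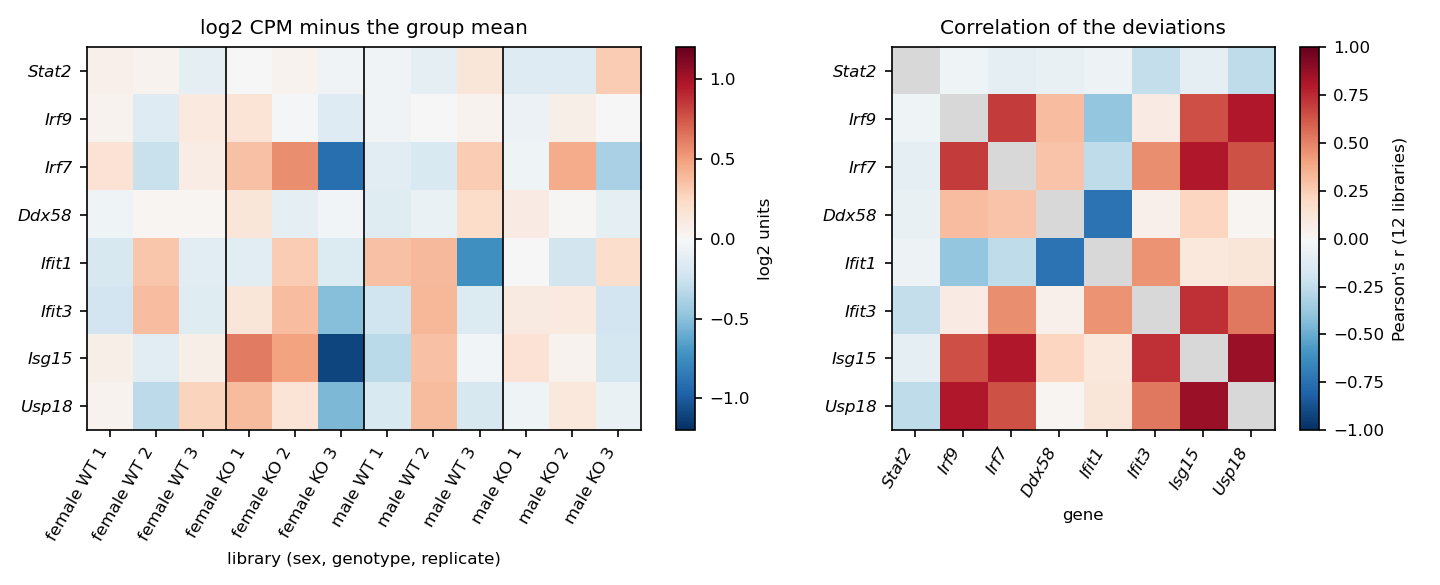
Left, log2 CPM of 8 interferon response genes minus the mean of the library's group (colour, in log2 units) in 12 libraries. Right, Pearson's r of these deviations for each pair of genes over the 12 libraries (colour). Female KO replicate 3 is below 0 for all 8 genes, but only at -0.03 for Ddx58 and -0.05 for Stat2. Isg15 and Usp18 form the reddest pair at 0.86.

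Among the tested genes outside the 9, those with the highest mean r with the 8 members over 12 libraries were 2700073G19Rik (0.51), Il16 (0.50), Gm17295 (0.50), 2810488G03Rik (0.49), Gm12541 (0.49) and Myo16 (0.49). None of them was on the list of other interferon pathway genes. Il16, a cytokine gene of lymphoid cells, had 0.561 CPM at most and Myo16, an unconventional myosin gene, 0.371 CPM at most, while 2700073G19Rik reached 1.16 CPM and Gm17295 ran from 0 to 5.23 CPM. Isg15, the member nearest the centre of the set, had a mean r of 0.47 with the other 7.

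The rest of the pathway was read from a list of 97 genes by role, of which 93 were in the table and 74 passed the filter. The ligands were nearly silent: Ifnb1 had 1 count in 1 of 12 libraries, and Ifna2 and Ifna5 had none. Only Ifnz of the 9 ligands in the table was tested, at 0.0955 to 0.374 CPM. The receptor chains were well expressed and even, Ifnar1 at 65.1 to 71.2 CPM and Ifnar2 at 24.4 to 28.0 CPM. The related regulator Irf1 had 4.38 to 7.48 CPM. Ifih1, the other cytoplasmic RNA sensor, had 4.02 to 5.96 CPM, below the level of Ddx58. The interferon-induced chemokine gene Cxcl10 had 0.365 to 0.840 CPM.

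None of the 74 genes was called for the deletion in either sex or for the difference between the sexes. In female MEFs 5 had an unadjusted p under 0.05, all lower in KO: Gbp2 (log2 fold change -0.55), Gbp7 (-0.71), Parp9 (-0.38), Cxcl10 (-0.69) and Samd9l (-0.47), with adjusted p-values of 0.49 or more by edgeR. Without female KO replicate 3 the change of Parp9 was -0.23. Over all genes tested 7.55% had such a p, and 2.98% had it and were lower in KO, and whether the direction of the 5 differed from that of all genes was not tested. Gbp2 and Gbp7 encode interferon-inducible GTPases, and Gbp2 had 3.81 CPM ± 0.576 in WT and 2.60 CPM ± 0.217 in KO libraries (SD, n = 3). In male MEFs 2 had an unadjusted p under 0.05, Ifi35 (-0.19) and the feedback inhibitor Socs1 (0.42), both with an adjusted p of 1.0 by edgeR, and Ifi35 had -0.11 without male KO replicate 3. For the difference of the effects 1 gene had an unadjusted p under 0.05, Gbp2 (-0.74), with an adjusted p of 1.0. The shares over all genes tested were 2.06% for the deletion in male MEFs and 3.19% for the difference of the effects. The median log2 fold change of the 74 genes was -0.03 in female and 0.0007 in male MEFs.

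Between the sexes 4 of the 74 genes were called in WT and 5 in KO MEFs. These include Slfn5, which entered the test only through the female libraries where it was high, and without it 3 and 4 of 73 were called, where the shares over all genes were 4.54% and 3.89%. In WT MEFs Slfn5 (log2 fold change 3.83, SE 0.66) and Irf8 (2.41, SE 0.45) were higher in female libraries, and Ikbke (-1.35, SE 0.11) and Uba7 (-1.06, SE 0.23) were lower. In KO MEFs Irf8 (2.42), Slfn5 (2.28) and Parp14 (1.35) were higher, and Samd9l (-1.43) and Ikbke (-1.19) were lower. Irf8 is a transcription factor of the myeloid lineage, and its levels of 0.963 CPM ± 0.0854 in female WT against 0.181 CPM ± 0.0756 in male WT libraries (SD, n = 3) stand beside the macrophage markers that were higher in the female libraries, whose part in it was not tested. Slfn5, a member of the Schlafen family, rested on 1 to 3.3 counts in each male WT library and 4.02 to 8.24 in each male KO library. It was over the low-count limit of 0.194 CPM in 0 of 6 male libraries, so its fold changes, calls and adjusted p-values are given as a description only. Uba7, the activating enzyme for Isg15 attachment, had 0.515 CPM ± 0.140 in female and 1.08 CPM ± 0.0735 in male WT libraries. The calls of Uba7, Slfn5, Parp14 and, in KO MEFs, Irf8 changed with the libraries or the design of the fit. Uba7 was no longer called in WT MEFs without female replicate 2 or 3 or male replicate 1 or 2, nor in the fit of only the libraries compared (edgeR adjusted p = 0.016), and its adjusted p ran from 0.00023 with DESeq2 to 0.018 with edgeR over the alternatives. Slfn5 and Parp14 were no longer called in KO MEFs without any 1 of the libraries other than female KO replicate 3, with adjusted p-values of 0.0028 (DESeq2) to 0.039 (edgeR) and of 0.00048 (DESeq2) to 0.023 (edgeR) over the alternatives. The replicate block also ended the call of Slfn5 in KO MEFs (edgeR adjusted p = 0.017), and the fit of only the libraries compared ended those of Irf8 (0.011) and Parp14 (0.020) there. Ikbke, a kinase acting upstream of the interferon genes, averaged 3.12 CPM ± 0.228 over female and 7.93 CPM ± 0.241 over male WT libraries.

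At an adjusted p under 0.05 with no fold limit, 10 genes of the 74 were higher and 19 lower in female WT MEFs. In female KO MEFs 9 were higher and 23 lower. Without Slfn5, 9 of 73 were higher and 19 lower in WT, and 8 higher and 23 lower in KO MEFs. Over all genes tested 18.9% were higher and 19.8% lower in female WT, and 18.9% higher and 19.7% lower in female KO MEFs. The totals of 29 and 32 of 74, with Slfn5 counted, stand against 38.7% of all genes in each genotype. Whether the split by direction differed from that of all genes was not tested. The receptor kinases Jak1, Jak2 and Tyk2 were among those lower in both genotypes, as was Ddx58 of the 9 members. Ifnar1, Ifnar2, Irf1, Ifih1 and Cxcl10 did not pass in either genotype. Ifit2 was higher in female KO MEFs (0.42, SE 0.13, edgeR adjusted p = 0.021, 0.0062 to 0.062 over the alternatives, and 0.28 without male KO replicate 2). In WT it had 0.32 (SE 0.13, edgeR adjusted p = 0.065, 0.024 to 0.21 over the alternatives). Ifit2 and Ifit1, genes of the same cluster, thus had fold changes of opposite sign between the sexes, and the difference between these genes was not tested.

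**Figure D4:**
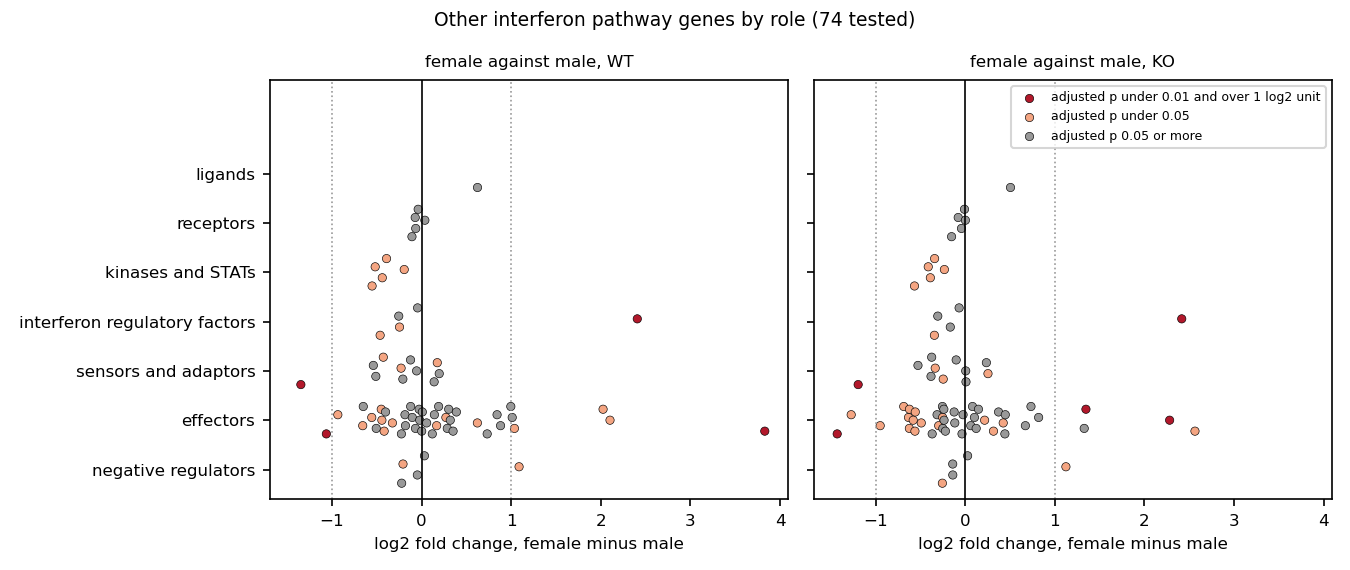
Log2 fold change, female minus male, of 74 other interferon pathway genes grouped by role, in WT (left) and KO (right) MEFs, with 1 point per gene and the vertical spread within a role for legibility only. Dark red points were called (4 in WT and 5 in KO), and light red points passed an adjusted p under 0.05 alone.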

How the data were processed

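Bowtie 2 and RSEM 1.2.29 were the authors' tools for mapping and quantification on mm9, and the values they deposited for 12 RNA-seq libraries are expected counts per gene with no normalization. The submitters' processing notes also name DESeq2 1.4.5. The Hi-C files were not used here. All 37310 gene identifiers occur in the annotation of NCBIM37 (mm9), from which positions and lengths come. CPM were computed from rounded counts and TMM-adjusted library totals, and CPM per kilobase is CPM divided by the length of the longest protein-coding transcript. After rounding to whole numbers, the tests were quasi-likelihood F tests of edgeR 4.0.16 under R 4.3.3 with TMM and filterByExpr, 1 mean per group and 8 residual degrees of freedom over 15387 genes. The thresholds follow the study's methods. DESeq2 1.42.0 was an alternative. On simulated counts for the female KO comparison over 15387 genes, edgeR recovered 169 of 200 genes changed 4-fold with 0 false calls, and DESeq2 179 with 7. The changed genes were drawn at random from all tested genes, so these rates do not give the recovery of low genes or of smaller changes. Co-variation used log2 CPM with a prior count of 2. Promoter windows come from RefSeq, GRCm38.p6. Intervals of fold changes are 95%.

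Members and gene lists were chosen with earlier results of these data known. Named genes were the 9 members, Firre, fixed pathway genes (1 of which is not reported here), up to 4 called pathway genes in each direction per comparison and the 6 genes most like the members. The pathway genes with an unadjusted p under 0.05 were named after their values were seen, and the lists by role were described in full counts.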

Additional observations from a re-analysis of the deposited data

How the results depend on the processing

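Of the members and other interferon pathway genes tested, none was called for the deletion, or for its difference between the sexes, in any alternative run: DESeq2 with mean dispersion, DESeq2 size factors, library size alone, testing unfiltered genes, a minimum of 10 counts in each library, fits restricted to the libraries compared, dropping the fold limit at an adjusted p below 0.05, the replicate block, each library left out, and the Ifit paralogs summed (chosen after seeing the data). The minimum of 10 counts left 6 members, without Isg15, Usp18 and Rsad2, and 60 other pathway genes, and Rsad2 entered only the DESeq2 fit and that of unfiltered genes. Between the sexes 1 member, Ddx58, passed an adjusted p below 0.05 alone in WT and 1 in KO, and leaving out a library gave 0 to 1 members in WT (Ifit1, without male WT replicate 3). The other pathway genes called, 4 in WT and 5 in KO, became 29 and 32 at that limit, 2 and 3 with at least 10 counts in every library, where fewer genes are tested, 2 in KO with only the libraries compared, and 3 to 6 in KO with a library left out. Of 1095 refitted fold changes of named genes 42 changed sign, and after that none exceeded 0.20 in size. With a library left out, the log2 fold changes that crossed 0 ran as follows. For the deletion in female MEFs, Stat2 ran from -0.039 to 0.048, Irf9 from -0.13 to 0.025, Ddx58 from -0.10 to 0.028, Ifit1 from -0.30 to 0.10, Ifit3 from -0.017 to 0.41 and Usp18 from -0.18 to 0.28. In male MEFs, Irf9 ran from -0.069 to 0.0031, Irf7 from -0.35 to 0.10, Ddx58 from -0.13 to 0.057, Ifit1 from -0.45 to 0.034, Ifit3 from -0.29 to 0.068 and Isg15 from -0.17 to 0.20. For the difference of the effects, Irf9 ran from -0.10 to 0.055, Ddx58 from -0.085 to 0.11 and Ifit1 from -0.14 to 0.35. Between the sexes in WT, Irf9 ran from -0.11 to 0.025, Irf7 from -0.21 to 0.060, Ifit3 from -0.44 to 0.019 and Ifnar2 from -0.074 to 0.0019. In KO, Stat2 ran from -0.11 to 0.14, Irf9 from -0.15 to 0.0071 and Ifit3 from -0.065 to 0.36.

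Deviations of same-numbered libraries correlated at -0.16 to -0.12 between female WT and KO, where other-numbered ones had -0.037 to 0.18, and at 0.097 to 0.33 between male WT and KO, where other-numbered ones had -0.29 to 0.14. Not every same-numbered pair passed 0.1, so the replicate block is given as an alternative. With the replicate block, members called numbered 0 and other pathway genes 4 in WT and 4 in KO between the sexes. The difference of the effects for Ifit1 was -0.0067 with the block and -0.016 with paralogs summed, against 0.052. The cause of these shifts was not tested. The median r of the members ran from -0.046 to 0.29 with a library left out, and from 0.12 to 0.18 with a prior count of 0.5, library size alone or Spearman's rank correlation. The intervals of the genes near or under 1 CPM span over 1 log2 unit, and how much of that width comes from depth was not tested.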
